A study of Mus musculus with 12 samples.

Results

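Wnt4 was followed in renal medulla from 3 mice under water restriction and 3 controls, on the 12 arrays on which the mice were compared. The medulla is the inner zone of the kidney, where urine is concentrated. Wnt4 was represented by 1 clone, printed as 2 adjacent spots, of 15600 clones and 31200 spots in all. Clones of a gene were averaged, which gave 6786 genes. The clone was found through the single gene symbol of the array annotation, but the gene itself was chosen by its difference between the groups in these same arrays. That difference is therefore described here without a test.

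The water-restricted mice (1, 2 and 3) had limited water and the control mice (1, 2 and 3) served as their comparison. Not given in the sources used here were strain, sex, age and the length of restriction. Amplified RNA of 1 water-restricted and 1 control mouse was placed on each 2-colour array, so that the 9 possible pairs of mice were all measured. In 3 of these pairs (water-restricted 1 with control 3, 2 with 1, and 3 with 2) a second array exchanged the dyes, Alexa Fluor 546 and Alexa Fluor 647.

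Wnt4 is a secreted ligand of the Wnt family. Wnt ligands bind Frizzled receptors and their partners on nearby cells, and signal either through beta-catenin, which acts with TCF and LEF factors in the nucleus, or through branches that act on cell polarity and calcium. In the developing mouse kidney Wnt4 is required for the mesenchyme to become the epithelium of the nephron. In the adult mouse it is known from the collecting ducts of the inner kidney, and it is known to be induced in injured and fibrotic kidney.

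The gene lies on chromosome 4 of mouse build GRCm38.p6, on the plus strand, at chr4:137277635-137299501, and is annotated as protein coding. Not given in the sources used here were the sequence of the spotted clone and its place within the gene. To place the gene, the 250 bases before its annotated start, chr4:137277385-137277634, are shown from RefSeq. Capitals mark the GC box letters GGGCGG on either strand.

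Wnt4 upstream: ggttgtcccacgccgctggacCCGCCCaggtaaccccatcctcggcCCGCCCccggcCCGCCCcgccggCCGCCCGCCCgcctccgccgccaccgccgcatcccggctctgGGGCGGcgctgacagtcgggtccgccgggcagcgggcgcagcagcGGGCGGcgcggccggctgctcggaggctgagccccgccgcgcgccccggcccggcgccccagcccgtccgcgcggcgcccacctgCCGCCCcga

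This window was 85.2% G or C, against a median of 52.4% over 32851 windows of the same length, and held 44 CG dinucleotides against a median of 6. GGGCGG was found 8 times, and 32.7% of all windows held it at least once. CTTTG, the core of the motif bound by TCF and LEF, and GGAAA, the core of the motif bound by the tonicity factor Nfat5, were not in this window (48.6% and 55.6% of all windows held them). The window had more G and C than 99.9% of windows, and these shares were not matched for base content. Nothing is therefore read from the missing motifs. The arrays did not measure the promoter.

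The deposited values are log2 ratios of both dyes, and which dye is the numerator is not given. The sign was turned on the 6 arrays on which Alexa Fluor 546 labelled the control mouse, so that all 12 run one way. A negative value then means lower in water-restricted mice if the ratio is Alexa Fluor 546 over 647, and higher in them if it is the reverse. Sizes and opposite sides can be read under either convention, and the direction of the Wnt4 difference stays unknown.

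As deposited, Wnt4 followed the dye of the mouse. Its ratio was below 0 on all 6 arrays on which Alexa Fluor 546 labelled the water-restricted mouse, with a mean of -1.39 ± 0.41, and above 0 on all 6 arrays with the control mouse in that dye, with a mean of 1.48 ± 0.26 (SD over arrays, n = 6 each). If the authors had instead already turned their ratios by group before deposit, the same numbers would mean a dye effect of -1.44 and a difference between the groups of 0.07. Over all genes, 20.5% differed among mice within a group at an unadjusted p under 0.05 (limma F-test) when values were read as running by dye, and 9.77% when they were read as already turned.

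After turning, the log2 ratio of Wnt4 was negative on 12 of 12 arrays. Water-restricted mouse 1 gave -0.66 against control mouse 1, -1.98 against control mouse 2, and -1.65 and -1.41 against control mouse 3 in the 2 dye orientations. Water-restricted mouse 2 gave -1.30 and -1.42 against control mouse 1, -1.46 against control mouse 2 and -1.21 against control mouse 3. Water-restricted mouse 3 gave -1.48 against control mouse 1, -1.40 and -1.40 against control mouse 2, and -1.86 against control mouse 3. The values nearest to and farthest from 0 both came from water-restricted mouse 1, and the other 10 arrays lay between -1.21 and -1.86. Of all genes, 139 (2.05%) kept 1 sign on all 12 arrays. The Wnt4 value nearest to 0 was -0.66. By this cut, taken from Wnt4 itself, Phactr1 and Miox were the only other genes of 1 sign with no array closer to 0. This describes the values for which Wnt4 was chosen and tests nothing. On single arrays between 10 and 404 of the 6786 genes, with a median of 45, were more negative than Wnt4.

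**Figure D1:**
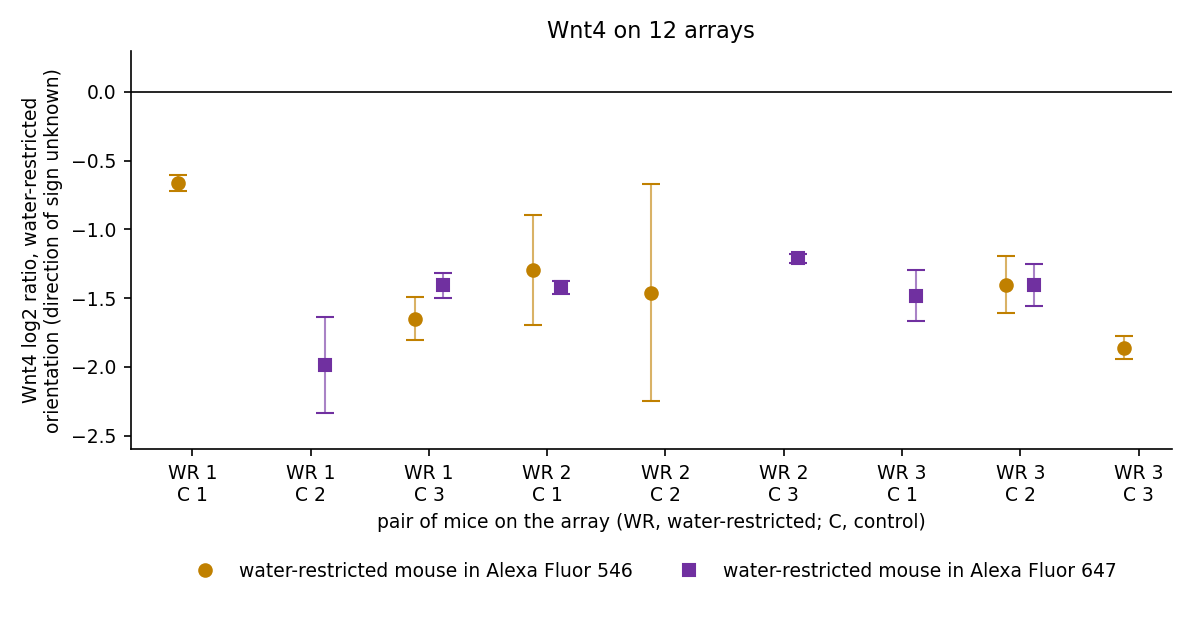
Wnt4 log2 ratio on each of 12 arrays, turned to the water-restricted orientation, by pair of mice (WR, water-restricted; C, control). Circles and squares are the mean of 2 spots, short bars are the single spots and the colour gives the dye of the water-restricted mouse. Every array lies below 0, and in the 3 pairs with both dye orientations the 2 arrays differ by at most 0.24.

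Dye exchange changed Wnt4 little in the 3 pairs that had it. Arrays of the same mice with exchanged dyes differed by 0.24 for water-restricted mouse 1 with control mouse 3, by 0.12 for mouse 2 with control mouse 1 and by 0.0029 for mouse 3 with control mouse 2, on the log2 scale. The mean gap was 0.12, against a median over genes of 0.42, and 3.85% of genes had a smaller gap. These gaps were taken after turning, on the arrays by which Wnt4 was chosen. That choice may have favoured a small gap, so its rank tests nothing. The dye term of Wnt4 was 0.07 (SE 0.11, limma adjusted p = 0.690, n = 12 arrays). It is a different contrast from the one Wnt4 was chosen on, but it comes from the same arrays, so it is no independent test. With values read as already turned the dye term was -1.44. Of all genes 769 (11.3%) passed the threshold of 0.05 for this term. Without 1 mouse the dye term of Wnt4 lay between -0.11 and 0.27, the highest being without control mouse 3 (SE 0.12).

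Both spots of the clone gave the same side. Taken alone, the first spot gave a difference between the groups of -1.40 and the second of -1.48. The gap between the spots within an array was 0.06 to 0.80 on 11 arrays. It was 1.58 on the array that paired water-restricted mouse 2 with control mouse 2 (-2.25 and -0.67), which also had the widest spread over all spots (SD 1.21, against a median of 0.60 over arrays). Without that array the difference between the groups was -1.43. In the median array 54.9% of clones had a smaller gap between their spots than Wnt4, so its spots did not lie closer together than those of most clones.

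A level for each mouse was fitted from all arrays, centred so that the 6 levels sum to 0. The Wnt4 levels were -0.67, -0.62 and -0.86 in water-restricted mice 1, 2 and 3, against 0.45, 0.90 and 0.81 in control mice 1, 2 and 3. The groups did not overlap, which held for 665 of 6786 genes (9.8%). The nearest mice of the groups, water-restricted mouse 2 and control mouse 1, lay 1.07 apart, and within a group the widest gap was 0.24 among water-restricted mice and 0.45 among control mice. Mean levels were -0.72 ± 0.13 in water-restricted mice and 0.72 ± 0.24 in control mice (SD, n = 3 mice each). The difference of water-restricted minus control was -1.44 (SE 0.17), which is 2.71-fold to 1 side or the other.

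From the most negative level to the most positive, the order was water-restricted 3, 1 and 2, then control 1, 3 and 2, and with the ratio the other way the same order runs from high to low. Each difference between mice of 1 group had a technical SE of 0.26. Neighbours in the order lay 0.19 and 0.05 apart among water-restricted mice, both less than this SE. Among control mice, mouse 3 lay 0.36 from mouse 1, which is more than the SE, and mouse 2 lay 0.08 from mouse 3. The widest difference within a group was 0.45, between control mice 2 and 1. The F statistic for differences between mice of the same group was 1.34 for Wnt4, against a median of 1.83 over genes. It is given without a p, because the choice of Wnt4 favoured a small spread within groups. The residual SD between arrays was 0.34, and 61.6% of genes had a smaller one.

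The size of the Wnt4 difference ranked sixth of 6786 genes, and on the negative side Phactr1, which binds actin and protein phosphatase 1, was the only gene with a larger one (-1.57, SE 0.43). The median absolute difference over genes was 0.13. In the comparison of mouse levels 0 of 6786 genes (0%) passed limma's adjusted threshold of 0.05, 337 (4.97%) had an unadjusted p under 0.05, and of these 119 (1.75% of all genes) were negative. A fit with random mouse effects called 112 genes. Nothing is read from these shares for Wnt4, which was chosen on this contrast. The series deposits ratios only, so the abundance of Wnt4 in either group was not measured, and fewer or more cells that make it cannot be told apart from less or more RNA per cell.

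Other Wnt ligands and Frizzled receptors on the array differed less between the groups than Wnt4. Of 19 listed Wnt genes 3 were measured, Wnt2, Wnt4 and Wnt6, and of 10 Frizzled genes 2, Fzd3 and Fzd7. None of the 4 genes other than Wnt4 passed in limma, adjusted or unadjusted, and in each of them the groups overlapped. Their differences lay between -0.32 and 0.16, against -1.44 for Wnt4.

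Wnt2, a ligand known from blood vessels and lung, had levels of -0.09, 0.20 and -0.20 in water-restricted mice, against 0.24, -0.29 and 0.13 in control mice. Its difference was -0.05 (SE 0.19). Wnt6, a ligand known from epithelia such as the ureteric bud, had -0.14, 0.08 and 0.09 in water-restricted mice, against -0.20, 0.21 and -0.04 in control mice, a difference of 0.02 (SE 0.17). The levels of both ligands were mixed between the groups.

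Fzd3, a receptor of the cell polarity branch, had 0.18, 0.18 and -0.13 in water-restricted mice, against 0.18, -0.31 and -0.12 in control mice. Its difference was 0.16 (SE 0.18), and its 2 clones gave 0.14 and 0.18. Fzd7, a receptor for several Wnt ligands, had 0.24, -0.06 and -0.66 in water-restricted mice, against 0.74, -0.30 and 0.03 in control mice, a difference of -0.32 (SE 0.31). The Fzd7 difference depended on single arrays. Without the one that paired water-restricted mouse 3 with control mouse 1 it was 0.0011, and without the one that paired water-restricted mouse 2 with control mouse 2 it was -0.10.

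**Figure D2:**
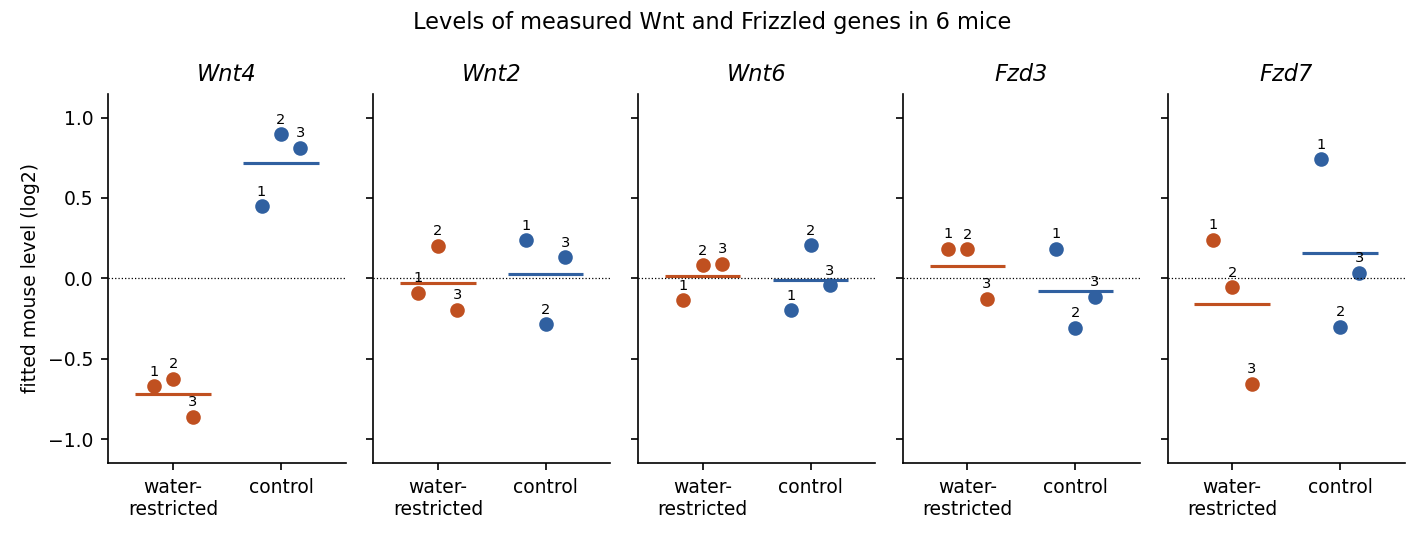
Fitted mouse levels (log2, centred over the 6 mice) of the 5 measured Wnt and Frizzled genes in water-restricted and control mice. Points are single mice with their number and horizontal lines are group means. The Wnt4 groups lie apart with means of -0.72 and 0.72, and those of Wnt2, Wnt6, Fzd3 and Fzd7 overlap.

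Further genes of Wnt signalling were taken from lists ordered by role, 208 genes with Wnt4, of which 79 besides Wnt4 were measured. Of these 37 were negative and 42 positive. Over all genes 49.3% were negative. The median difference was 0.01, against 0.0034 over all genes. By limma 0 of the 79 passed the adjusted threshold, and 2 had an unadjusted p under 0.05, Ccnd1 and Siah1a, both negative, which is 2.53% of the pathway genes against 4.97% of all genes. The groups did not overlap in 6 of the 79 (7.59%), against 9.8% of all genes. None of the 79 had a difference as large as that of Wnt4. The dye term also passed in 6 of them, against 11.3% of all genes.

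Among receptor partners and genes for ligand secretion, 4 of 16 were measured, with a median of 0.02. Gpc3, a cell surface glypican, had -0.17 (SE 0.16). Rnf43 and Znrf3, ubiquitin ligases that remove Frizzled receptors from the membrane, had 0.11 (SE 0.17) and -0.08 (SE 0.26). Ryk, a Wnt receptor related to tyrosine kinases, had 0.14 (SE 0.29) and a dye term of 0.27 (limma adjusted p = 0.0462). In each of these genes the levels of the groups overlapped.

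Of 20 secreted inhibitors, R-spondins and related genes 5 were measured, with a median of 0.10. Rspo2 and Rspo3, secreted proteins that strengthen Wnt signals, had 0.19 (SE 0.21) and -0.11 (SE 0.15), and the 2 clones of Rspo3 disagreed, at -0.37 and 0.15. Kremen1, a receptor for Dickkopf inhibitors, had 0.19 (SE 0.22), and the Dickkopf relative Dkk3 had 0.08 (SE 0.15). Levels of the groups overlapped in each.

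Cytoplasmic signalling was the best covered step, with 23 of 36 genes measured and a median of 0.06. Siah1a, a ubiquitin ligase that can lead to the breakdown of beta-catenin, had -0.11, -0.41 and -0.06 in water-restricted mice, against 0.10, 0.25 and 0.23 in control mice. Its groups did not overlap, as in 9.8% of all genes. The difference of Siah1a was -0.39 (SE 0.16, limma unadjusted p = 0.0383, adjusted p = 0.939), with a negative sign on 9 of 12 arrays. Axin1, the scaffold of the complex that breaks down beta-catenin, had 0.35 (SE 0.18), the casein kinase Csnk2a1 0.55 (SE 0.31) and Csnk1d 0.34 (SE 0.20). Beta-catenin itself, Ctnnb1, had -0.08 (SE 0.25), with levels of 0.11, 0.20 and -0.44 in water-restricted mice, against 0.49, -0.19 and -0.17 in control mice.

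Of 24 nuclear factors 11 were measured, with a median of -0.07. The histone acetylase Crebbp had -0.16 (SE 0.20) and the corepressor Tle4 -0.13 (SE 0.18). The chromatin remodeller Chd8 had 0.15 (SE 0.19), from 2 clones on opposite sides at -0.12 and 0.42, and Bcl9, a partner of beta-catenin, had 0.21 (SE 0.28). In the polarity and calcium branch 15 of 36 genes were measured, with a median of 0.01. There the phospholipase Plcb3 had 0.28 (SE 0.14), the kinase Rock1 0.22 (SE 0.14), the GTPase Cdc42 0.24 (SE 0.16), from clones at -0.02 and 0.49, and Daam2, which links Dishevelled to actin, 0.18 (SE 0.23). The groups of Plcb3 and Rock1 did not overlap, as in 9.8% of all genes, and none of these genes had an unadjusted p under 0.05 in limma.

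Among common target genes of the beta-catenin branch, 15 of 26 were measured, 9 negative and 6 positive, with a median of -0.03. Ccnd1, or cyclin D1, which drives entry into the cell cycle, had -0.73, -0.45 and -0.59 in water-restricted mice, against 0.60, 0.01 and 1.17 in control mice. Its groups did not overlap, as in 9.8% of all genes, and 12 of 12 arrays were negative, where 2.05% of all genes kept 1 sign. Its difference was -1.18 (SE 0.27, limma unadjusted p = 0.00243, adjusted p = 0.609). Its control mice also differed among themselves, with control mouse 2 nearest to the water-restricted mice, and Ccnd1 was 1 of 30 genes (0.442%) past the F-test among mice within a group (limma adjusted p = 0.0451). That call was lost without any 1 of the 6 mice (adjusted p from 0.0991 to 0.691).

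The next target genes by p were closer to 0. Ccnd2, or cyclin D2, had -0.25 (SE 0.15), and its 6 clones were all negative, from -0.05 to -0.40. The matrix protease Mmp7 had 0.25 (SE 0.22) and the transcription factor Jun -0.24 (SE 0.24). Myc, a frequently used target, had -0.11 (SE 0.15). Axin2 and Lef1 were not among the measured genes.

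Of 31 genes that act with Wnt4 in kidney and gonad development 5 were measured, with a median of -0.18. They were Wt1 at 0.28 (SE 0.18), Bmp4 at -0.32 (SE 0.22), the GDNF receptor Gfra1 at -0.18 (SE 0.19), Emx2 at -0.15 (SE 0.18) and Bmp2 at -0.26 (SE 0.48). Wt1 and Emx2 are transcription factors of the early urogenital system, and Bmp2 and Bmp4 are secreted growth factors. None of the 5 had an unadjusted p under 0.05 in limma.

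**Figure D3:**
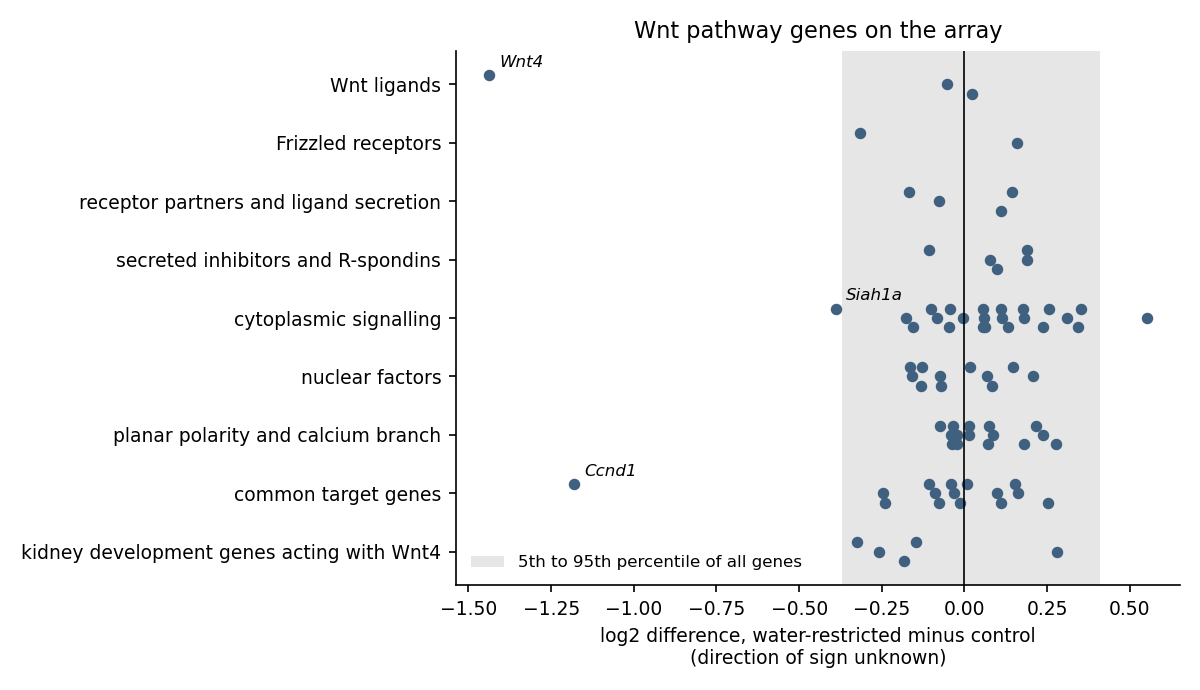
Log2 difference of water-restricted minus control mice for each measured gene of the Wnt pathway lists, with the 5th to 95th percentile of all genes (-0.37 to 0.41) as a grey band. The direction of the sign is unknown. Wnt4 at -1.44 and Ccnd1 at -1.18 lie far left of the band.

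The genes whose mouse levels were most like those of Wnt4 were sought among the 1159 genes whose highest and lowest mouse level lay at least 1 apart. The measure was Pearson's r over the 6 fitted levels, which come from the same 12 arrays. It is a description with no p, and any difference between the groups on either side enters it. The closest were Fxyd4, which modulates the Na,K-ATPase of collecting duct cells (r = 0.968), Blnk, an adaptor of B-cell signalling (0.935), Tmsb4x, or thymosin beta 4, which binds actin monomers (0.932), the epithelial keratin Krt18 (0.924) and the calcium-binding protein S100a6 (0.922).

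Fxyd4 had -0.66, -0.43 and -0.56 in water-restricted mice, against 0.08, 0.88 and 0.69 in control mice. As for Wnt4, control mouse 1 was the control nearest to the water-restricted mice and control mouse 2 the farthest from them. Tmsb4x had -0.28, -0.36 and -0.54 in water-restricted mice, against 0.21, 0.77 and 0.20 in control mice, with a dye term of 0.28 (limma adjusted p = 0.0413). The groups of both genes did not overlap, as in 9.8% of all genes. Their choice by correlation with Wnt4 favoured this, and also the order of the control mice in Fxyd4. Krt18, with -0.56, -0.05 and -0.70 in water-restricted mice, against 0.43, 0.48 and 0.39 in control mice, carried a dye term of 0.56 (limma adjusted p = 0.0114), and its 3 clones gave differences of -0.95, -0.78 and -0.88.

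The most opposite genes were Hsd3b1, an enzyme of steroid synthesis (r = -0.996), the membrane carbonic anhydrase Car4 (-0.984), Ahcy, which hydrolyses S-adenosylhomocysteine (-0.973), Tmem38b, a cation channel of the endoplasmic reticulum (-0.972), and Noct, or nocturnin, a rhythmically expressed phosphatase (-0.971). All 5 were positive on 12 of 12 arrays, where 2.05% of all genes kept 1 sign. Their choice by correlation with Wnt4 favoured this. Hsd3b1 had 0.67, 0.65 and 0.79 in water-restricted mice, against -0.33, -0.98 and -0.80 in control mice, nearly the mirror image of Wnt4. Unlike Wnt4 it had a dye term past the threshold (-0.80, limma adjusted p = 0.00139). The 3 clones of Ahcy gave 1.03, 0.13 and 0.99. At or beyond 0.95 there was 1 gene on the side of Wnt4 and 7 on the opposite side.

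**Figure D4:**
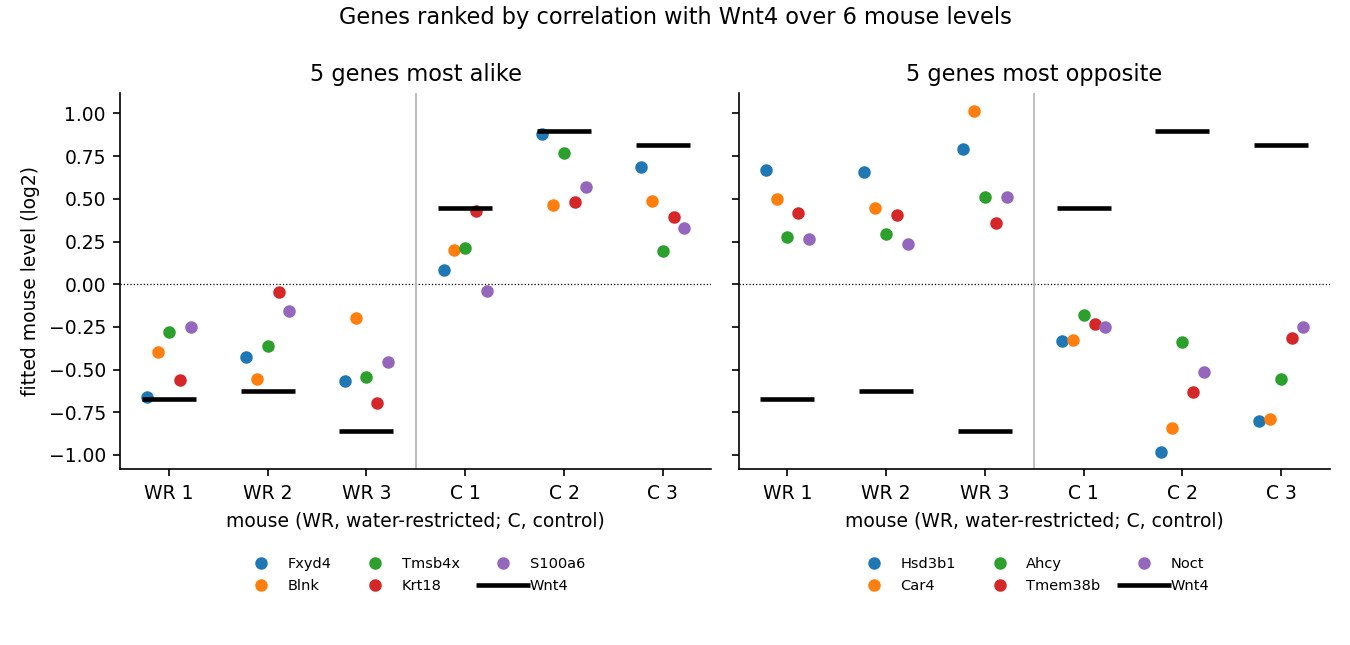
Fitted mouse levels (log2) of the 5 genes with the highest correlation with Wnt4 over 6 mice (left) and the 5 with the lowest (right), for water-restricted (WR) and control (C) mice. Coloured points are genes and black bars are Wnt4. In both panels control mouse 1 lies nearer to 0 than control mouse 2 for Wnt4 (0.45 and 0.90).

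Markers of kidney segments are set beside Wnt4 here, and 0 of them passed limma's adjusted threshold between the groups. Of 18 listed genes of the principal cell, the collecting duct cell that reabsorbs water under vasopressin, 9 were measured and all 9 were negative, against 49.3% of all genes, with a median difference of -0.29. Their mean level was -0.27, -0.14 and -0.27 in water-restricted mice, against 0.12, 0.16 and 0.40 in control mice. In this mean the groups lay on the same sides as for Wnt4 and did not overlap. The widest differences in it were those of Fxyd4 (-1.10), Krt18 (-0.87) and Gata3 (-0.59). Fxyd4 and Krt18 were also named above for their correlation with Wnt4. Taken gene by gene, the groups did not overlap in 3 of the 9 and overlapped in the rest, against no overlap in 9.8% of all genes. The genes ranged from Fxyd4 at -1.10 to Tfcp2l1, a transcription factor, at -0.10, and 3 of the 9 were negative with an unadjusted p under 0.05 in limma, against 1.75% of all genes. The dye term passed in 4 of the 9, the keratins Krt7, Krt8, Krt18 and Krt19, against 11.3% of all genes. With only the arrays on which Alexa Fluor 546 labelled the water-restricted mouse, 6 of 9 were negative with a median of -0.10, and with only those on which Alexa Fluor 647 did so, 9 of 9 with -0.61. Without control mouse 3 it was 8 of 9 with -0.10. Wnt4 was -1.39 on the first set of arrays, -1.48 on the second and -1.39 without control mouse 3.

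Of 27 proximal tubule genes, which mark the cortex and outer stripe, 5 were measured and 4 were positive, with a median of 1.05. Of these 3 were positive with an unadjusted p under 0.05 in limma, against 3.21% of all genes, and the dye term passed in 2 of the 5, Slc22a7 and Gatm. Their mean level was 0.39, 0.43 and 0.54 in water-restricted mice, against 0.22, -0.92 and -0.66 in control mice. Control mouse 1 stood nearest to the other group for this mean and for Wnt4, though not for each of the genes. Without control mouse 2 the proximal tubule median was 0.61 and Wnt4 was -1.35. Of 13 interstitial and pericyte genes 9 were measured and 6 were negative, with a median of -0.20, among them Col3a1, a fibrillar collagen, at -0.56 (SE 0.17), while Dcn, or decorin, was at 0.55 (SE 0.18). The intercalated cell had 1 measured gene, Slc4a1, at -0.74 (SE 0.24), which red blood cells also express, and the erythroid list had 2, Hbb-b1 at -0.999 (SE 0.25) and Alas2 at -0.24 (SE 0.22). Slc4a1 and Hbb-b1 also had dye terms past the threshold (0.55 and 0.37). Thin limb, distal tubule, urothelium and leukocytes had 1 measured gene each, podocytes and endothelium 2 each, and the thick ascending limb none of 8. The part of these cell types in the Wnt4 difference was not tested. Since ratios hold no levels, the labelled tissue could not be checked against its markers, and Aqp2 and Slc12a1 were not among the measured genes.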

How the data were processed

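The authors deposited 1 log2 ratio per spot and array, complete for all spots. That they are on a log2 scale was judged from their signs and range (down to -15.2). Dyes and mice come from the labels; not given in the sources used here were scanner signals, background correction, normalization, centring and the numerator, so signal over background could not be examined, and the number of arrays limits the precision. Array medians lay between -0.04 and 0.06, and the 2 spots of a clone correlated at 0.362 to 0.684 across clones.

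Adjacent spots were averaged to 15600 clones. Of these 9191 had 1 gene, 254 several and 6155 none in the platform annotation; 9085 symbols were looked up by Entrez identifier in RefSeq (GRCm38.p6). The 6 arrays with the control mouse in Alexa Fluor 546 were turned in sign. In the deposited sign, exchanged-dye arrays correlated across clones at -0.14, 0.13 and -0.13, so this reading rests on small values.

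For each gene, weighted least squares with a dye term gave 6 mouse levels, each array of an exchanged pair weighing 0.5. Levels were compared by limma (version 3.58.1, R 4.3.3), 3 mice against 3 (lmFit, eBayes, Benjamini-Hochberg over all genes, threshold 0.05). Differences between mice of 1 group (F-test) and the dye term were tested on the 12 arrays against technical error. For Wnt4 the first 2 are given without a p. The procedure was also run on simulated data with planted differences, as a check of the code only, and its outcome is not used here.

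Named genes were Wnt4, every measured Wnt and Frizzled gene, up to 4 genes with the smallest p of each other list, and the 5 genes most and least correlated with Wnt4 over mouse levels spanning at least 1. Genes named outside this rule (Phactr1, Miox, Ctnnb1, Myc, Bmp2 and the marker genes) were chosen after their values were seen. The members and lists were chosen with earlier results of these data known.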

Additional observations from a re-analysis of the deposited data

Results flagged for a closer look

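Among the 6 arrays on which Alexa Fluor 647 labelled the water-restricted mouse, the Wnt4 ratio of water-restricted mouse 1 against control mouse 2 lay apart at -1.98, with the other 5 between -1.48 and -1.21. Without this array the difference between the groups was -1.32. Among the same 6 arrays, the Fzd7 ratio of water-restricted mouse 3 against control mouse 1 lay apart at -2.69, with the other 5 between -0.39 and 0.29, and without it the Fzd7 difference was 0.0011 in place of -0.32. Chance sets apart about 1 in 20 such groups, and 10 were examined.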

How the results depend on the processing

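The Wnt4 difference stayed between -1.57 and -1.32 under 33 of 34 alternatives, but not all of these are separate checks. They include each of 12 arrays left out in turn, which was added after seeing the data. Without 1 mouse the Wnt4 difference was -1.57 to -1.35. With values read as already turned it was 0.071, with a dye term of -1.44, since that reading exchanges both terms. With the replicate block on the mouse number it was -1.44, and 0 genes passed as without it. Deviations of same-numbered mice correlated across genes at -0.01, -0.54 and -0.11, and those of other pairs at -0.50 to 0.50. Fitted levels of mice on the same array share its error, so these values cannot show whether the numbers pair the mice. Wnt4 had 1 clone, so medians over clones change nothing. Robust eBayes and a fit without the dye term also gave the main estimate, -1.438, as did the block. Equal weights, arrays as replicates and random mouse effects had the same estimate, -1.436. Leaving out the array with the widest spread over all spots was both planned and part of the 12. Its value of -1.43 is therefore counted under both. Other Wnt and Frizzled genes past the threshold numbered 0 under all 22 alternatives run for them.

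Between groups, 0 genes and 0 clones passed, but 1 gene and 1 clone on the arrays alone on which Alexa Fluor 647 labelled the water-restricted mouse, 1 gene with the 3 exchanged pairs, 451 genes and 674 clones with arrays as replicates, 112 genes and 211 clones with random mouse effects, and 4 clones with values read as already turned. Between mice of the same group 30 genes passed, against 14 with equal weights, 6 without the dye term, 0 where Alexa Fluor 546 and 6 where Alexa Fluor 647 labelled the water-restricted mouse, 164 without the array that paired water-restricted mouse 2 with control mouse 2, 0 with values read as already turned, 13 and 14 with the first and second spots, and 0 to 18 without 1 mouse. For the dye term 769 genes passed, against 449 with equal weights, 1 with the exchanged pairs alone, 332 with arrays as replicates, 337 and 415 with the first and second spots, and 0 to 11 without 1 mouse. Fits without a mouse have fewer arrays; the other causes were not tested. Exchanged pairs alone, arrays as replicates, random mouse effects and the block gave no F-test.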
